A study of Homo sapiens with 4 samples.

Results

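Genes of homologous recombination, the Fanconi anaemia pathway, break sensing and end joining were examined in 2 human colorectal cancer cell lines after knockdown of TMEM161A. The 42 genes were taken by symbol from lists of these pathways, with earlier results of these data known. Each matched 1 of the 60658 Ensembl gene identifiers in the data. RNA was sequenced from cells labelled HT29 and LIM1215, both established lines. In each line, 1 library came from cells given a negative control siRNA and 1 from cells given an siRNA against TMEM161A, named si2 in the sample titles. That made 4 libraries in all. A small interfering RNA (siRNA) is a short RNA duplex that directs the degradation of a matching mRNA. The dose of siRNA and the time to harvest are not given in the sources used here, and no other treatment is named. No group had a replicate library, and a comparison was repeated only across the lines. TMEM161A encodes a protein of the membrane and has been linked to oxidative stress and the DNA damage response. The study's assays of knockdown cells covered growth, invasion and the cell cycle, and the RNA data served to find pathways tied to TMEM161A.

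Breaks through both strands of DNA are sensed by the MRE11-RAD50-NBN complex, which recruits the kinase ATM, while ATR answers to exposed stretches of unpaired DNA. In S phase and G2, resected ends are repaired by homologous recombination: BRCA1 with BARD1 and PALB2 brings BRCA2 to the resected end, and a group of cofactors that includes RAD51B, RAD51C, RAD51D, XRCC2 and XRCC3 supports strand exchange. The Fanconi core complex attaches ubiquitin to FANCD2 and FANCI at crosslinks between strands, and end joining by the Ku proteins, DNA-PKcs and LIG4 acts in all phases. Many recombination and Fanconi genes are transcribed most in S phase, so their mRNA level in a culture can follow the share of cells in that phase. In bulk libraries, fewer cells in S phase and less mRNA per cell cannot be told apart.

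Levels are FPKM as deposited by the authors, that is, fragments scaled by gene length and by the size of the library. A value "from" one level "to" another runs from the control to the knockdown library of the same line. Each percent of control is followed, in brackets, by a 95% counting interval, which covers the error of counting fragments only and not the variation between cultures. Log2 ratios are of FPKM plus 1, knockdown over control, which understates the change of genes with low levels. A gene was counted as lower or higher past a log2 ratio of 0.585, a 1.5-fold difference, without a test, since each group had 1 library. Counts at 2-fold used the same scale of FPKM plus 1. Genes with low levels can thus miss a threshold that their percent of control passes. In HT29, BRCA2 at 62.9% missed 1.5-fold and BRIP1 at 40.5% missed 2-fold in this way. The single test was a limma fit over the 4 libraries with the line as a block. It sets the mean effect of the siRNA over the lines against a spread. A gene's own disagreement between the lines gives 1 degree of freedom of that spread. An estimated 6.06 come from the spread of all genes, so its intervals and p-values reflect mostly the latter. The p-values were adjusted over 14803 genes of a mean level of at least 1 FPKM. Of the 42 genes, 41 reached that level. FANCB did not, at a mean of 0.895 FPKM.

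TMEM161A itself went from 42.6 to 4.64 FPKM in HT29 and from 39.1 to 7.61 in LIM1215, 10.9% of control (9.38% to 12.6%) in HT29 and 19.4% of control (17.2% to 22%) in LIM1215. At the estimated depths, 18.1 to 21.5 fragments per kilobase made up an FPKM of 1, and 23397 to 23935 genes were listed above 0 per library. All 10 colonic epithelial markers examined were above 1 FPKM in both LIM1215 libraries, but only 6 in the libraries labelled HT29. There KRT20, VIL1, CDX1 and LGALS4 lay below 1 FPKM in both, with VIL1, the gene for the brush border protein villin, at 0.0397 in the control and listed at 0 in the knockdown library. HT29 is generally described as a line that makes villin, and the name HT29 stands here for the libraries so labelled. The identity of the cells was not tested. Of 6 fibroblast, 6 leukocyte and 4 endothelial markers, COL1A1 (4.83 to 17.6 FPKM) and CD68 (6.22 to 72.2 FPKM) were above 1 FPKM. LUM, PTPRC and CD3E were listed at 0 in all 4 libraries.

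Most of the repair genes had levels below control in the knockdown library in both lines. The median of the log2 ratios of the 41 genes was −0.44 in HT29 and −0.26 in LIM1215, against 0.04 in HT29 and 0.02 in LIM1215 over all 14803 genes. In HT29, 36 of the 41 were below control, against 44.4% of all genes, and in LIM1215 35, against 46.4%. By at least 1.5-fold, 12 in HT29 were lower, against 6.91% of all genes, and none was higher, against 7.87%. LIM1215 had 9 lower, against 6.18%, and none higher, against 6.63%. The genes lower past 1.5-fold in both lines were BRCA1, BRIP1, RAD51AP1 and FANCG, 4 of 41 against 2.14% of all genes, and none was higher in both, against 1.88%. By 2-fold or more, RMI1, RAD51AP1, FANCL and RAD54L were lower in HT29, against 1.95%, and BRCA2 in LIM1215, against 1.78%. None was higher by as much in HT29, against 1.85%, or in LIM1215, against 1.68%. Below control at all in both lines were 33 of the 41, against 28.0% of all genes, and 3 were above it in both, against 36.0%.

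**Figure D1:**
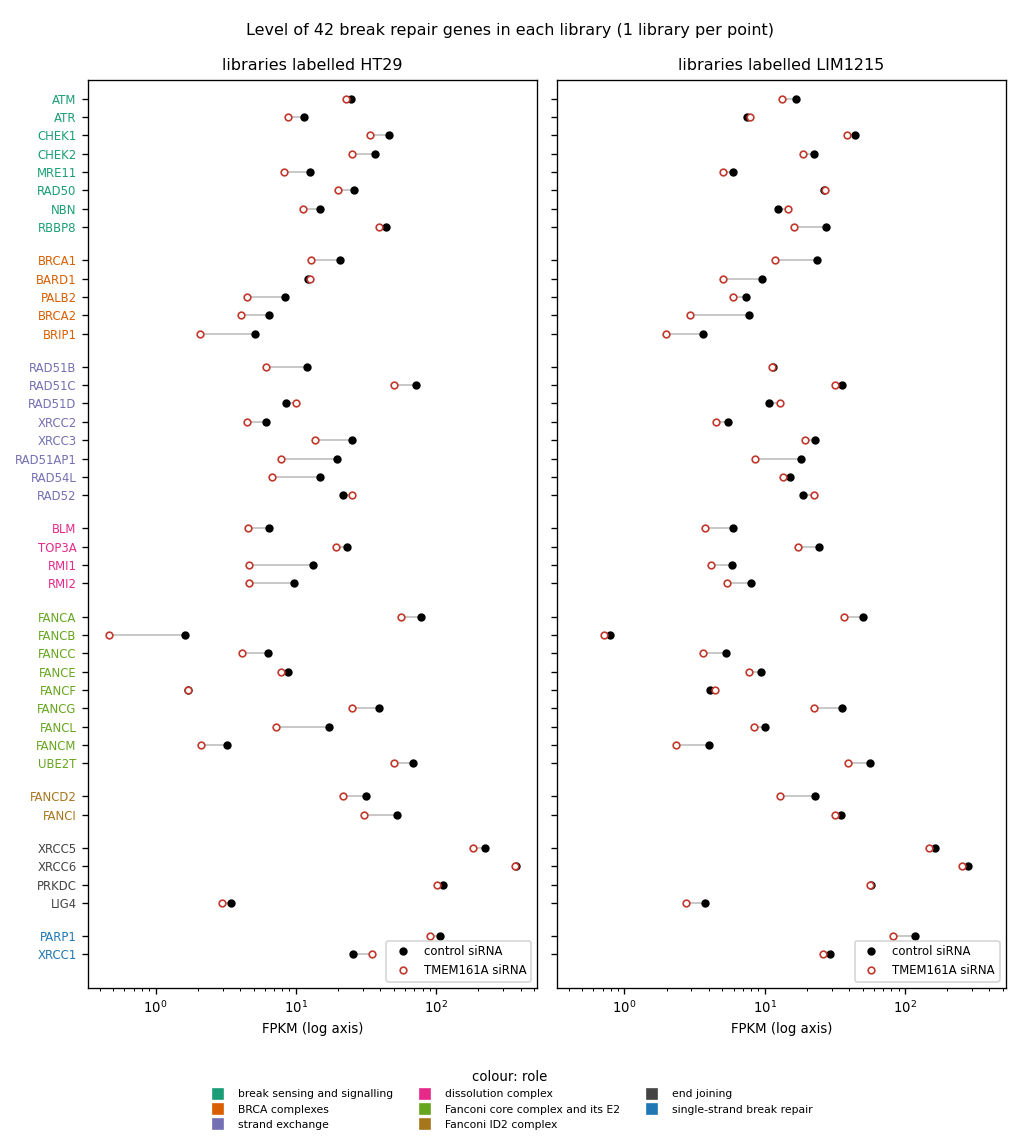
FPKM (log axis) of the 42 repair genes in each library, by role; filled points are control and open points TMEM161A siRNA libraries, 1 library each. Most open points lie to the left of the filled ones in both lines, and the end joining genes XRCC5 and XRCC6 have the highest levels.

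In the fit over both lines, 1 of the 41 genes passed an adjusted p of 0.05, RAD51AP1, against 1.09% of all genes called lower, and none passed upward, against 0.858%. At an unadjusted p of 0.05, 23 of the 41 were lower, against 8.84% of all genes, and none was higher, against 10.6%. BRCA1 (adjusted p = 0.0541), FANCG (0.0595), FANCD2 (0.0712), UBE2T (0.0922) and FANCA (0.0934) came next in limma's order and did not pass. Those 5 passed together with RAD51AP1 when only genes with a mean of at least 5 FPKM were fitted. The call of RAD51AP1 was lost with a pseudocount of 0.1, without a filter on low levels, with FPKM rescaled to a common sum, without the line block, and without limma's trend of the spread on the level.

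**Figure D2:**
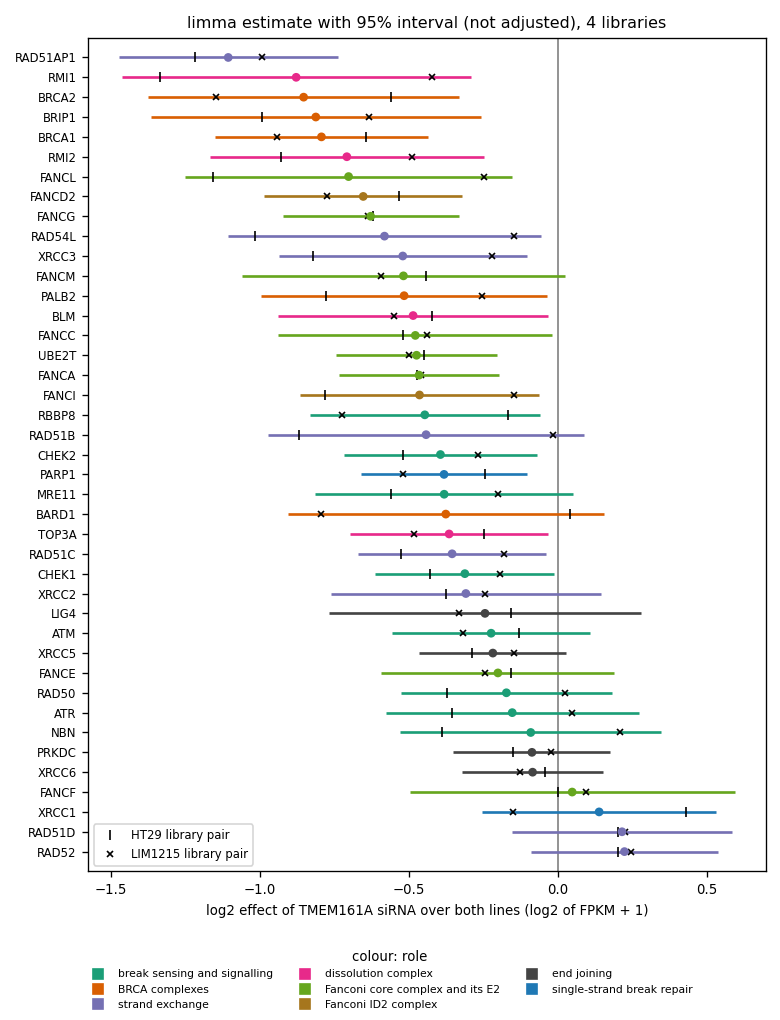
Log2 effect of the TMEM161A siRNA over both lines for 41 repair genes, with limma's 95% interval (not adjusted for multiple tests); ticks and crosses are the log2 ratios of the HT29 and LIM1215 library pairs. RAD51AP1 is lowest at −1.11, and the lines lie far apart for RMI1, FANCL, RAD54L, RAD51B and BARD1.

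The promoters of the repair genes were searched for motifs known from cell cycle genes. RefSeq promoter windows, 250 bases before to 50 after a start site on GRCh38.p14, were at hand for 37 of the 42 genes. An E2F-type heptamer (TTGGCGC or else TTCCCGC or else TTGCCGC or else TTCGCGC, on either strand) was in the windows of 22 of the 37 genes, 59.5%, against 15.3% of 27305 genes with an entry and 87.0% of the replication genes. With 1 more T in front, as an octamer that holds the heptamer, it was found in 6 genes, 16.2% against 3.99%. A CCAAT box (CCAAT, either strand) was in 51.4% against 39.7%, and the CHR hexamer (TTTGAA, either strand) in 13.5% against 18.2%. The heptamer was tried after the octamer had been counted. Genes with and without the heptamer had HT29 median log2 ratios of −0.45 each, and LIM1215 medians of −0.43 with it and −0.26 without. A match describes the letters and shows no binding.

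The windows of 4 genes are shown, 1 each from strand exchange, the BRCA complexes, the Fanconi target complex and dissolution, chosen after their values were seen, for their lower levels in the knockdown libraries. All 4 hold the heptamer, so they do not stand for the whole set. Of the measured genes with a window, 14 lack it. Among these is BRCA2, which had the lowest LIM1215 ratio, −1.15, and no match to any of the motifs. Letters run 5′ to 3′ on the strand of the gene, and capitals mark the heptamer and the CCAAT box on either strand. RAD51AP1 (chr12:4538640-4538939, plus strand) has the heptamer's first letter 21 bases before the start site and a CCAAT box at 70. BRCA1 (chr17:43125315-43125614, minus strand) has it at 47 bases and a CCAAT box further upstream. FANCD2 (chr3:10026187-10026486, plus strand) has it across the start site, 2 bases before, and RMI1 (chr9:83980555-83980854, plus strand) has 3 matches, at 188, 32 and 20 bases. BRCA1 and RMI1 have 2 windows each in the table, and the one with more matches is shown. A gene was counted as holding a motif where any of its windows did.
RAD51AP1: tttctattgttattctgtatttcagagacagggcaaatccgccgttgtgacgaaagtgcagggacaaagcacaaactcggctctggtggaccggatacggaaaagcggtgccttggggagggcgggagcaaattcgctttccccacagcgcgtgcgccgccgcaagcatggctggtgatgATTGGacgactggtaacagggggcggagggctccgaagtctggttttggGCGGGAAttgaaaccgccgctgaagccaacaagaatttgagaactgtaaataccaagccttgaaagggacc
BRCA1: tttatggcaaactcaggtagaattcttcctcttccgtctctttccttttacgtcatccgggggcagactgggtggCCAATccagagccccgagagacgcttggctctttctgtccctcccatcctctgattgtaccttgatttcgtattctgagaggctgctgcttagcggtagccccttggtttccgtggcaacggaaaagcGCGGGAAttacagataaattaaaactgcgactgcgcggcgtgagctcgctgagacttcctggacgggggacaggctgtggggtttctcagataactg
FANCD2: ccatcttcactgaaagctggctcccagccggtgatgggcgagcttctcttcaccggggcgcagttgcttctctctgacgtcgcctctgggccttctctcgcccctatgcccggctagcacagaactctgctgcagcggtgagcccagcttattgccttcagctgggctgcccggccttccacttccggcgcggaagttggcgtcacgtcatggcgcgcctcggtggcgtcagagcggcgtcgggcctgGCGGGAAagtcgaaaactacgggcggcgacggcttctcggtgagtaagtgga
RMI1: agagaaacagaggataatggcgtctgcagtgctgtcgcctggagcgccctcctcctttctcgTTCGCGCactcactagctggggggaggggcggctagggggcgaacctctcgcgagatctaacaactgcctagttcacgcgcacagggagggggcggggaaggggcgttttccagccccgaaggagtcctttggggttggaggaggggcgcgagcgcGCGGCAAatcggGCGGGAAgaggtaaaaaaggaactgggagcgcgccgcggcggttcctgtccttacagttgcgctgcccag

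The BRCA complexes had the lowest median log2 ratio of the roles in LIM1215, with medians of −0.64 in HT29 and −0.80 in LIM1215, and each of the 5 genes was lower past 1.5-fold in at least 1 line. BRCA1 (ENSG00000012048, chromosome 17, 43044295 to 43170245, minus strand, GRCh38, GENCODE release 44), a ubiquitin ligase that acts in recombination, went from 20.6 to 12.8 FPKM in HT29 and from 23.7 to 11.8 in LIM1215. That was 62.2% of control (58.7% to 65.9%) in HT29 and 49.99% of control (47% to 53.1%) in LIM1215, with an effect over both lines of −0.79 (95% interval −1.15 to −0.44) and limma's adjusted p = 0.0541. Both knockdown libraries lay below both controls. BRCA2 (ENSG00000139618, chromosome 13, 32315086 to 32400268, plus strand), a central mediator of recombination, went from 6.46 to 4.07 FPKM in HT29 and from 7.77 to 2.96 in LIM1215, 62.9% of control (58.1% to 68.1%) in HT29 and 38.1% of control (34.8% to 41.6%) in LIM1215. It had the lowest log2 ratio of all 41 genes in LIM1215, −1.15, and its effect over both lines was −0.85 (95% interval −1.38 to −0.33), with limma's adjusted p = 0.105. BRIP1, a helicase that binds BRCA1, had low levels and went from 5.11 to 2.07 FPKM in HT29 and from 3.64 to 1.99 in LIM1215, 40.5% of control (35.7% to 45.9%) in HT29 and 54.7% of control (47.5% to 63%) in LIM1215. Its effect over both lines was −0.81 (95% interval −1.37 to −0.26), with limma's adjusted p = 0.131.

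BARD1 and PALB2 differed between the lines. BARD1, the obligate partner of BRCA1, went from 12.2 to 12.6 FPKM in HT29 and from 9.53 to 5.07 in LIM1215, 103% of control (95.8% to 111%) in HT29 and 53.2% of control (47.7% to 59.2%) in LIM1215. The HT29 libraries were thus within counting error of each other, while the LIM1215 pair was not. PALB2, which bridges BRCA1 and BRCA2, had the reverse order of sizes and went from 8.40 to 4.49 FPKM in HT29 and from 7.30 to 5.95 in LIM1215, 53.4% of control (46.9% to 60.7%) in HT29 and 81.5% of control (71.7% to 92.7%) in LIM1215. The limma effect was −0.38 (95% interval −0.91 to 0.15) for BARD1 (adjusted p = 0.414) and −0.52 (95% interval −0.997 to −0.04) for PALB2 (adjusted p = 0.229).

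Among the 8 genes of strand exchange, 4 were lower past 1.5-fold in HT29 and only RAD51AP1 in LIM1215. The medians were −0.67 in HT29 and −0.17 in LIM1215. RAD51AP1 (ENSG00000111247, chromosome 12, 4538798 to 4560047, plus strand), a cofactor of strand pairing, fell over both lines and went from 19.6 to 7.84 FPKM in HT29 and from 18 to 8.54 in LIM1215. That was 40.03% of control (35.1% to 45.6%) in HT29 and 47.4% of control (41.4% to 54.3%) in LIM1215, with a limma effect of −1.11 (95% interval −1.47 to −0.74) and adjusted p = 0.0281. Over the 10 settings of the fit, its adjusted p ranged from 0.00387 to 0.9999. The knockdown level was well below control in both lines.

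RAD54L, a motor protein that acts in strand exchange on chromatin, went from 14.8 to 6.81 FPKM in HT29 and from 15.1 to 13.5 in LIM1215, 46% of control (40.9% to 51.7%) in HT29 and 89.5% of control (81% to 99%) in LIM1215. RAD51B, a subunit of the BCDX2 complex, went from 12.1 to 6.17 FPKM in HT29 and from 11.5 to 11.4 in LIM1215, 51% of control (42.4% to 61.2%) in HT29 and 98.7% of control (83.8% to 116%) in LIM1215. XRCC3, which pairs with RAD51C, went from 25 to 13.7 FPKM in HT29 and from 22.9 to 19.5 in LIM1215, 54.9% of control (49.9% to 60.2%) in HT29 and 85.2% of control (77.8% to 93.3%) in LIM1215. All 3 were thus much lower in HT29 and closer to control in LIM1215, where the interval of RAD51B included control. The limma effects were −0.58 (95% interval −1.11 to −0.06) for RAD54L, −0.44 (95% interval −0.97 to 0.09) for RAD51B and −0.52 (95% interval −0.94 to −0.11) for XRCC3, with adjusted p = 0.218, 0.335 and 0.178.

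RAD51C, which forms complexes with XRCC3 and with the BCDX2 subunits, went from 72.4 to 49.9 FPKM in HT29 and from 35.8 to 31.4 in LIM1215. XRCC2, of the BCDX2 complex, went from 6.09 to 4.47 FPKM in HT29 and from 5.51 to 4.50 in LIM1215. Both were below control in each line by less than 1.5-fold. RAD51D, its partner, went the other way, from 8.56 to 10.01 FPKM in HT29 and from 10.8 to 12.8 in LIM1215, 117% of control (109.7% to 125%) in HT29 and 119% of control (112% to 126%) in LIM1215. RAD52, an annealing protein that can act apart from BRCA2, went from 21.8 to 25.2 FPKM in HT29 and from 18.8 to 22.4 in LIM1215, 116% of control (107% to 125%) in HT29 and 119% of control (109.8% to 130.02%) in LIM1215. RAD51D and RAD52 were the only 2 of the 42 genes whose counting intervals lay above control in both lines. Neither passed 1.5-fold, and limma's adjusted p was 0.5 for RAD51D and 0.412 for RAD52.

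The 4 genes of the dissolution complex, which untangles joined DNA molecules without crossing over, were below control in both lines, and RMI1 and RMI2 passed 1.5-fold, in HT29 only, with medians of −0.68 in HT29 and −0.49 in LIM1215. RMI1, the scaffold of the complex, went from 13.3 to 4.65 FPKM in HT29 and from 5.86 to 4.11 in LIM1215, 35.1% of control (30.7% to 40.003%) in HT29 and 70.2% of control (59.4% to 82.9%) in LIM1215. It had the lowest log2 ratio of the 41 genes in HT29, −1.33. RMI2, its partner, went from 9.74 to 4.64 FPKM in HT29 and from 8.01 to 5.42 in LIM1215, 47.7% of control (38.1% to 59.4%) in HT29 and 67.7% of control (53.7% to 85.2%) in LIM1215. BLM, the helicase mutated in Bloom syndrome, went from 6.44 to 4.55 FPKM in HT29 and from 5.99 to 3.78 in LIM1215, 70.6% of control (62.8% to 79.4%) in HT29 and 63% of control (55.2% to 71.9%) in LIM1215. TOP3A, the topoisomerase, went from 23.2 to 19.4 FPKM in HT29 and from 24.5 to 17.3 in LIM1215, 83.5% of control (79.3% to 87.9%) in HT29 and 70.4% of control (66.6% to 74.5%) in LIM1215. All 8 counting intervals of these genes lay below control. Limma's effect was −0.88 (95% interval −1.46 to −0.29) for RMI1 (adjusted p = 0.125) and −0.71 (95% interval −1.17 to −0.25) for RMI2 (adjusted p = 0.118).

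In the Fanconi pathway, FANCD2 and FANCI form the complex that receives ubiquitin. FANCD2 (ENSG00000144554, chromosome 3, 10026370 to 10101932, plus strand) went from 31.8 to 21.7 FPKM in HT29 and from 22.7 to 12.8 in LIM1215, 68.2% of control (64.6% to 71.9%) in HT29 and 56.6% of control (52.7% to 60.8%) in LIM1215. FANCI went from 53 to 30.4 FPKM in HT29 and from 35.2 to 31.7 in LIM1215, 57.3% of control (54.8% to 60.004%) in HT29 and 90.1% of control (85.5% to 94.8%) in LIM1215. FANCD2 thus passed 1.5-fold in LIM1215 and FANCI in HT29. Limma gave −0.65 (95% interval −0.99 to −0.32) for FANCD2 (adjusted p = 0.0712) and −0.46 (95% interval −0.87 to −0.06) for FANCI (adjusted p = 0.205).

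Of the core complex and its ubiquitin-conjugating enzyme UBE2T, 7 of the 8 genes with a mean of at least 1 FPKM were below control in both lines, with medians of −0.46 in HT29 and −0.45 in LIM1215. FANCG, an adaptor of the core, had nearly the same ratio in both lines and went from 39.1 to 25.1 FPKM in HT29 and from 35.5 to 22.4 in LIM1215, 64.2% of control (59.8% to 68.9%) in HT29 and 63.2% of control (58.4% to 68.4%) in LIM1215. Its limma effect was −0.63 (95% interval −0.92 to −0.33) (adjusted p = 0.0595). FANCA, the partner of FANCG and the most abundant core gene, went from 78.1 to 56 FPKM in HT29 and from 50.5 to 36.5 in LIM1215, 71.7% of control (69.4% to 74.1%) in HT29 and 72.2% of control (69.2% to 75.3%) in LIM1215. UBE2T went from 68.2 to 49.7 FPKM in HT29 and from 56.3 to 39.5 in LIM1215, 72.8% of control (66.1% to 80.3%) in HT29 and 70.2% of control (62.6% to 78.7%) in LIM1215. The log2 ratio in LIM1215 minus that in HT29 was −0.02 for FANCG, 0.01 for FANCA and −0.05 for UBE2T, so the lines were close.

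FANCL, the ubiquitin ligase of the core, went from 17.2 to 7.17 FPKM in HT29 and from 10.1 to 8.32 in LIM1215, 41.6% of control (35.4% to 48.7%) in HT29 and 82.7% of control (69.2% to 98.8%) in LIM1215. It was lower past 1.5-fold in HT29 only, and limma gave −0.70 (95% interval −1.25 to −0.15) with adjusted p = 0.173. FANCM, the translocase that anchors the core on DNA, had the reverse order and went from 3.24 to 2.12 FPKM in HT29 and from 4.0 to 2.32 in LIM1215, 65.4% of control (56.5% to 75.5%) in HT29 and 57.8% of control (50.1% to 66.6%) in LIM1215, with limma's adjusted p = 0.276. FANCC, a core subunit, went from 6.37 to 4.14 FPKM in HT29 and from 5.30 to 3.65 in LIM1215. FANCE, which binds FANCD2, went from 8.84 to 7.82 FPKM in HT29 and from 9.42 to 7.79 in LIM1215. Both stayed within 1.5-fold of control on the log2 scale of FPKM plus 1. FANCF, an adaptor with low levels, went from 1.70 to 1.70 FPKM in HT29 and from 4.06 to 4.41 in LIM1215, and its intervals included control in both lines. FANCB, the member under the level limit, went from 1.62 to 0.462 FPKM in HT29 and from 0.786 to 0.710 in LIM1215, 28.5% of control (18% to 43.8%) in HT29 and 90.4% of control (56.9% to 143%) in LIM1215. By estimate it had about 97 control and 28 knockdown fragments in HT29, against 40 and 41 in LIM1215, so only its HT29 difference exceeded counting error.

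**Figure D3:**
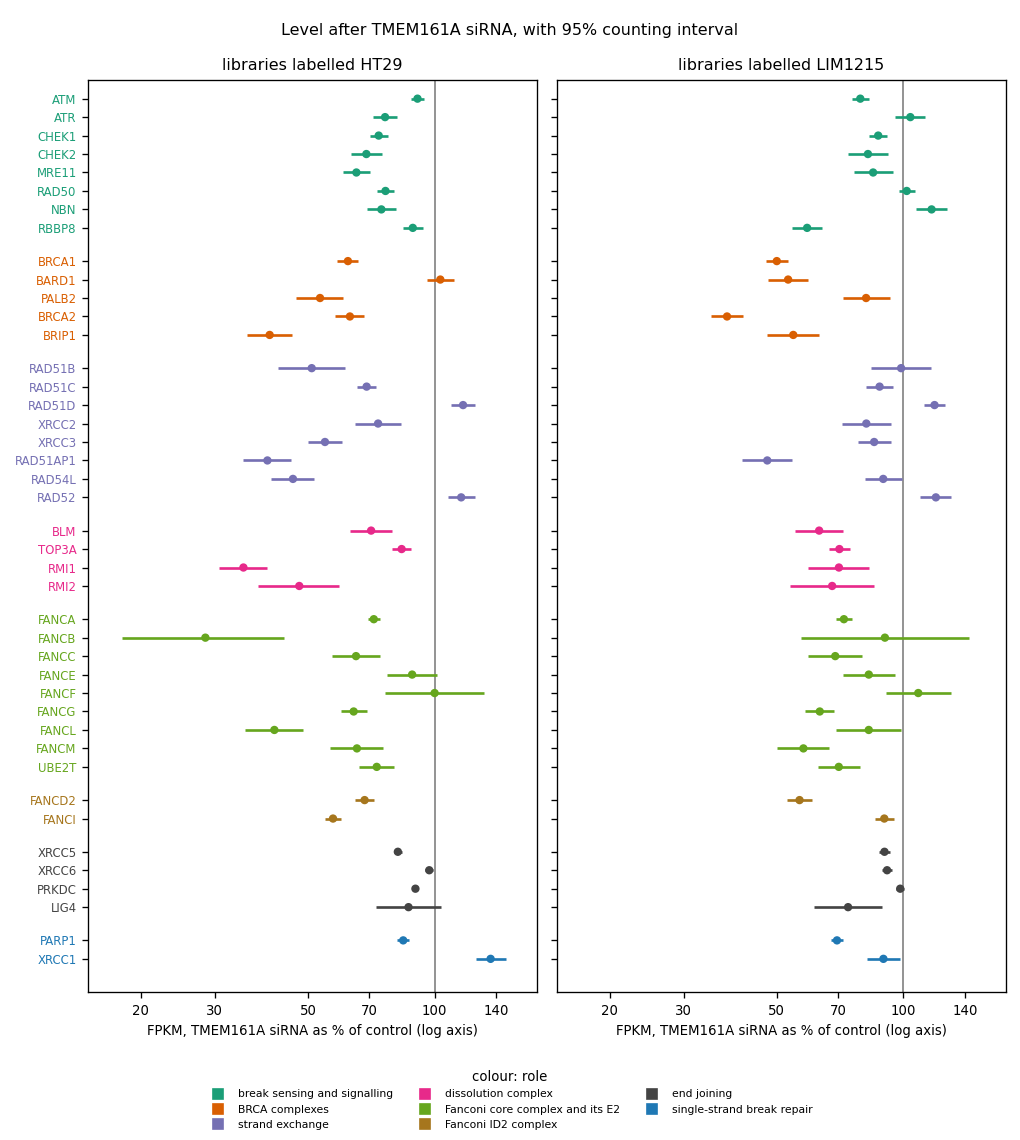
Level of the 42 repair genes in the TMEM161A siRNA library as a percent of the control library of the same line (log axis), with 95% counting intervals, by role. Most points lie left of 100% in both lines, FANCB is lowest in HT29 at 28.5% and BRCA2 in LIM1215 at 38.1%, and XRCC5, XRCC6 and PRKDC lie between 81.8% and 98.3%.

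The 8 genes of break sensing and signalling were all below control in HT29, where none passed 1.5-fold, and 5 were below it in LIM1215. Their medians were −0.38 in HT29 and −0.20 in LIM1215. RBBP8, the gene for CtIP, which starts resection, was the only one past 1.5-fold, in LIM1215. It went from 44.2 to 39.2 FPKM in HT29 and from 27.4 to 16.2 in LIM1215, 88.8% of control (84.1% to 93.6%) in HT29 and 59% of control (54.4% to 63.9%) in LIM1215, with a limma effect of −0.45 (95% interval −0.83 to −0.06) and adjusted p = 0.205. MRE11, the nuclease, went from 12.5 to 8.17 FPKM in HT29 and from 5.91 to 5.0 in LIM1215, 65.2% of control (60.5% to 70.2%) in HT29 and 84.7% of control (76.1% to 94.3%) in LIM1215. Its partners differed between the lines. RAD50 went from 25.9 to 19.8 FPKM in HT29 and from 26.6 to 27.1 in LIM1215, 76.4% of control (73.1% to 79.9%) in HT29 and 102% of control (97.5% to 106%) in LIM1215. NBN, the subunit that binds ATM, went from 14.9 to 11.2 FPKM in HT29 and from 12.5 to 14.6 in LIM1215, 74.7% of control (68.9% to 81%) in HT29 and 117% of control (107% to 127%) in LIM1215. All 3 subunits were thus below control in HT29, while in LIM1215 MRE11 was below it, RAD50 was within counting error and NBN was above it, all within 1.5-fold.

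The kinases at the head of the response stayed within 1.5-fold of control. ATM went from 24.9 to 22.7 FPKM in HT29 and from 16.8 to 13.3 in LIM1215, 91.1% of control (88% to 94.3%) in HT29 and 79% of control (75.4% to 82.7%) in LIM1215. ATR went from 11.5 to 8.73 FPKM in HT29 and from 7.53 to 7.82 in LIM1215, 76.2% of control (71.2% to 81.6%) in HT29 and 104% of control (95.7% to 113%) in LIM1215. Their effector kinases were below control in both lines, within 1.5-fold. CHEK1, downstream of ATR, went from 45.9 to 33.8 FPKM in HT29 and from 44.3 to 38.6 in LIM1215, 73.6% of control (70.1% to 77.3%) in HT29 and 87.1% of control (82.9% to 91.6%) in LIM1215. CHEK2, downstream of ATM, went from 36.7 to 25.3 FPKM in HT29 and from 22.6 to 18.6 in LIM1215, 68.8% of control (63.1% to 75%) in HT29 and 82.3% of control (73.7% to 92%) in LIM1215. None of these 4 passed limma's adjusted p of 0.05, with 0.240 for CHEK1 and 0.190 for CHEK2.

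The Ku genes had the highest levels of the 42 genes, and the 4 end joining genes differed little, with medians of −0.15 in HT29 and −0.14 in LIM1215. XRCC6, the gene for Ku70, went from 373 to 362 FPKM in HT29 and from 279 to 255 in LIM1215, 97.1% of control (95% to 99.3%) in HT29 and 91.4% of control (88.9% to 94%) in LIM1215. XRCC5, the gene for Ku80, went from 224 to 183 FPKM in HT29 and from 163 to 147 in LIM1215, 81.8% of control (79.9% to 83.7%) in HT29 and 90.2% of control (87.6% to 92.8%) in LIM1215. PRKDC, the gene for the catalytic subunit of DNA-PK, went from 112 to 101 FPKM in HT29 and from 57 to 56 in LIM1215, 90.04% of control (88.6% to 91.5%) in HT29 and 98.3% of control (96% to 101%) in LIM1215. These 3 abundant genes lay at 81.8% of control or above. LIG4, the ligase, had low levels and went from 3.44 to 2.98 FPKM in HT29 and from 3.73 to 2.75 in LIM1215, 86.7% of control (72.7% to 103%) in HT29 and 73.9% of control (61.3% to 89%) in LIM1215. None of the 4 passed 1.5-fold in either line, and none had an unadjusted p under 0.05. Limma's effect was −0.22 (95% interval −0.47 to 0.03) for XRCC5 (adjusted p = 0.309) and −0.09 (95% interval −0.32 to 0.15) for XRCC6 (adjusted p = 0.692).

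PARP1, the sensor of nicks and breaks, was below control in both lines, within 1.5-fold, and went from 107 to 90.1 FPKM in HT29 and from 119 to 82.5 in LIM1215, 84.2% of control (81.6% to 86.9%) in HT29 and 69.5% of control (67.2% to 71.8%) in LIM1215. XRCC1, the scaffold of single-strand break repair, went from 25.7 to 34.9 FPKM in HT29 and from 29.2 to 26.2 in LIM1215, 136% of control (125% to 148%) in HT29 and 89.6% of control (82% to 98%) in LIM1215, so its interval lay above control in HT29 and below it in LIM1215. The limma effect was −0.38 (95% interval −0.66 to −0.10) for PARP1 (adjusted p = 0.152) and 0.14 (95% interval −0.26 to 0.53) for XRCC1 (adjusted p = 0.700).

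The size of the response was next compared between the lines, as the LIM1215 log2 ratio minus the HT29 one. With 1 library per group this difference has no test. It was at least 0.585 upward, which means a higher ratio in LIM1215, for 7 of the 41 genes, 17.1% against 7.8% of all genes. These were FANCL (0.91), RMI1 (0.91), RAD54L (0.87), RAD51B (0.85), FANCI (0.64), XRCC3 (0.60) and NBN (0.60). It was as large downward for BARD1 (−0.84) and BRCA2 (−0.59), 4.88% against 7.97%. The median difference was 0.09 over the 41 genes and −0.02 over all genes.

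**Figure D4:**
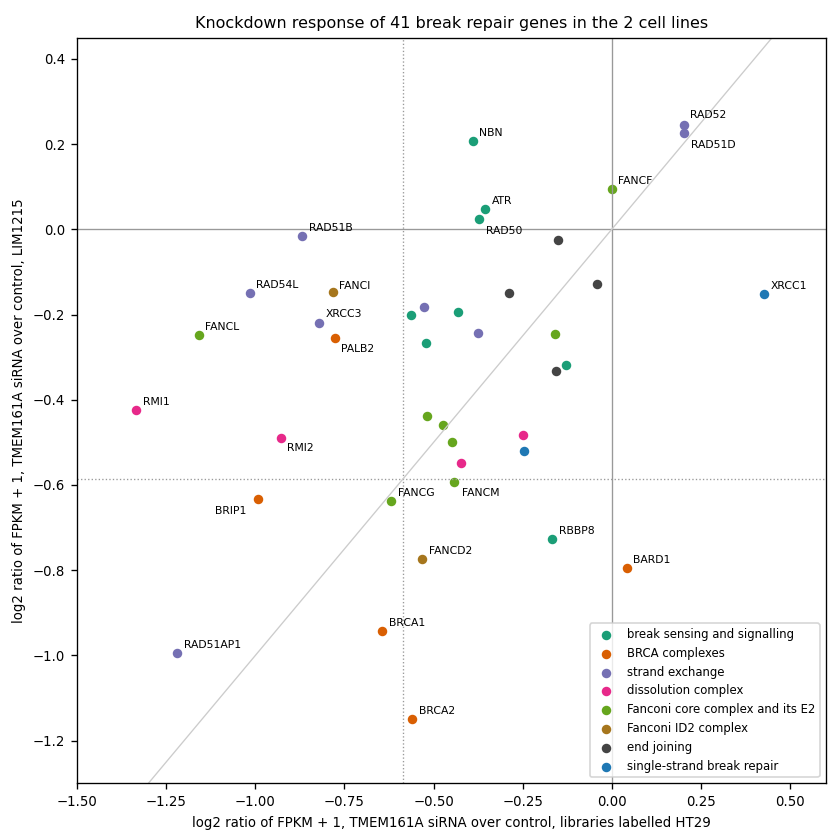
Log2 ratio of FPKM + 1, TMEM161A siRNA over control, of 41 repair genes in HT29 (x axis) and LIM1215 (y axis), coloured by role; dotted lines mark a 1.5-fold decrease and the diagonal marks equal ratios. BRCA1, BRIP1, RAD51AP1 and FANCG lie past 1.5-fold in both lines, and RMI1, FANCL, RAD54L and RAD51B lie far to the left with LIM1215 ratios between −0.42 and −0.02.

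The control libraries of the lines were also compared for these genes. Relative to HT29, 8 of the 41 genes were at least 1.5-fold lower in LIM1215, 19.5% and so near the 16.3% of all genes. FANCF alone was higher, 2.44% and so well under the 21.8% of all genes. RMI1 had 13.3 FPKM in control HT29 cells against 5.86 in LIM1215 control cells. The same 2 levels were 72.4 and 35.8 FPKM for RAD51C, 12.5 and 5.91 for MRE11 and 112 and 57 for PRKDC. The other genes lower in LIM1215 were FANCL, CHEK2, RBBP8 and FANCA. The same control libraries enter the log2 ratios of each line, so these levels and the difference in response above are not independent.

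As a wider view of the pathways, 72 further genes were examined, of which 70 reached a mean of 1 FPKM. Over these 70, the median was −0.11 in HT29 and −0.15 in LIM1215. In HT29, 13 of them were lower past 1.5-fold, against 6.91% of all genes, and 4 higher, near or under the 7.87% of all genes. In LIM1215, 10 were lower, against 6.18%, and none was higher, against 6.63%. Among those lower in both lines were USP1, EXO1, DMC1, EME1 and POLQ. USP1, the enzyme that removes ubiquitin from FANCD2, went from 16.5 to 5.21 FPKM in HT29 and from 15.1 to 5.0 in LIM1215, or 31.6% and 33.1% of control, with limma's adjusted p = 0.0150. EXO1, an exonuclease of long-range resection, went from 13.6 to 7.54 FPKM in HT29 and from 21.2 to 9.11 in LIM1215, with limma's adjusted p = 0.0442. Both fell over both lines by that test. Of the 10 settings of the fit, USP1 passed in 7 and EXO1 in 4, and neither passed without a filter, without the line block or without the trend.

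EME1, a subunit of the MUS81 nuclease, went from 21 to 10.7 FPKM in HT29 and from 11.9 to 7.32 in LIM1215 and had an adjusted p of 0.0643 in limma. POLQ, the polymerase of microhomology-mediated joining, went from 7.63 to 3.09 FPKM in HT29 and from 7.20 to 4.13 in LIM1215 and had 0.0855. DMC1, the meiotic recombinase, had low levels, was listed at 0 in the HT29 knockdown library, and stood at 1.38 in the HT29 control and at 3.06 and 0.685 in LIM1215. By list, 10 of the 21 other recombination genes measured had an unadjusted p under 0.05 downward and none upward. The other Fanconi genes had 1 downward and 2 upward of 13, and the other end joining and single-strand break genes 4 downward and 1 upward of 18. For checkpoint and chromatin genes it was 5 downward and none upward of 18. Over all genes the shares were 8.84% downward and 10.6% upward, so the counts of 1 and 2 genes lie near the background.

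The 26 replication genes, such as the MCM helicase subunits, were all below control in both lines, against 28.0% of all genes. Their medians were −0.56 in HT29 and −0.59 in LIM1215. Past 1.5-fold, 12 were lower in HT29, 13 in LIM1215 and 8 in both, against 6.91%, 6.18% and 2.14% of all genes. By limma's adjusted p, 6 of them fell, against 1.09% of all genes, and each of these passed in 4 to 7 of the 10 settings of the fit. Of the 15 p53 target genes, 11 were above control in both lines, against 36.0% of all genes. Their medians were 0.40 in HT29 and 0.50 in LIM1215. Past 1.5-fold, 5 were higher in HT29, 7 in LIM1215 and 4 in both, against 7.87%, 6.63% and 1.88% of all genes. The same test called 2 genes that rose, against 0.858% of all genes: CDKN1A, the inhibitor of cyclin-dependent kinases, and BTG2, an antiproliferative gene. Both calls held in 7 of the 10 settings. Of the 42 repair genes, 14 were listed from textbook knowledge as having a transcript peak in S phase, with earlier results of these data known. Of these, 13 were measured above the level limit. Their medians were −0.56 in HT29 and −0.55 in LIM1215. The other 28 repair genes had medians of −0.36 in HT29 and −0.23 in LIM1215. At an unadjusted p of 0.05, 12 of the 13 and 11 of the 28 were lower, against 8.84% of all genes. Since the 14 were listed with results known, their contrast with the other 28 is a description and no test. The part of the number of cells in S phase in these levels was not tested.

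**Figure D5:**
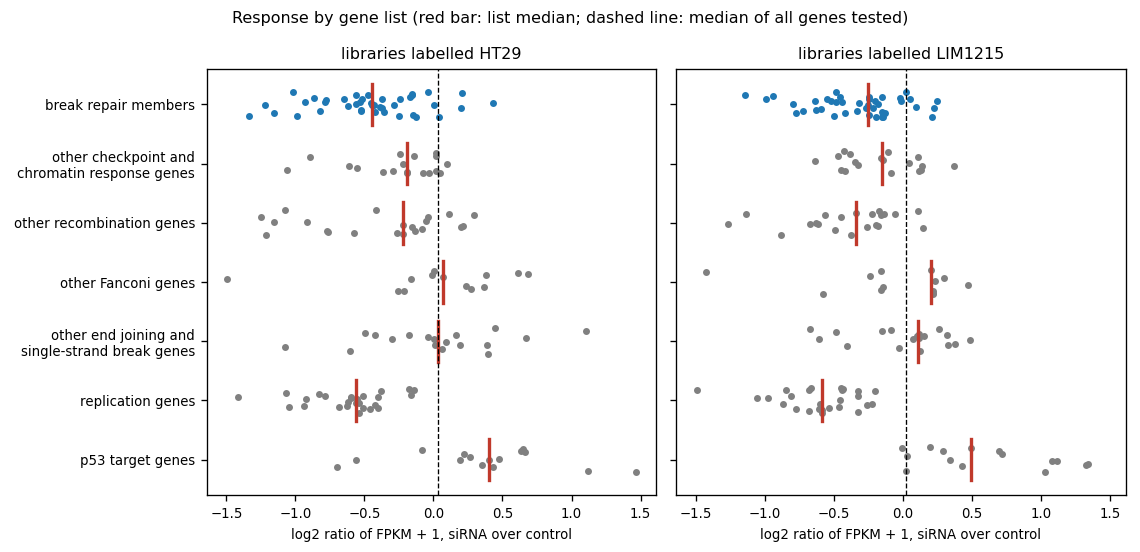
Log2 ratio of FPKM + 1, TMEM161A siRNA over control, for each gene of the repair set (41 genes) and of 6 further lists in HT29 and LIM1215; each point is a gene, the red bar the list's median and the dashed line the median of all genes tested. The median of the repair genes lies between that of the replication genes, which are all below 0, and those of the other end joining genes, at 0.04 and 0.11.

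Some of these levels may hold fragments of neighbouring genes. Exons of 12 of the 42 genes overlap a protein-coding gene on the opposite strand, among them FANCL (VRK2), FANCI (POLG), RAD54L (LRRC41), XRCC3 (KLC1) and FANCA (ZNF276). The library kit keeps the strand, but whether counting used it is not given in the sources used here. A further 5 genes overlap a coding gene on their own strand, namely CHEK1 (STT3A), FANCG, RAD50, RAD51D and XRCC1, the last 4 with loci that have no symbol, so their levels are less certain.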

How the data were processed

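Per the labels' protocols, libraries were prepared from total RNA with a kit for poly(A) mRNA that keeps the strand. The authors deposited 1 table of FPKM per library. The submitters' processing notes name HISAT2 2.1.0, SAMtools 1.20, Cufflinks 2.2.1, Cuffdiff and GRCh38, without their roles. The annotation, the filters and the use of strand are not given in the sources used here. Because FPKM is relative to the whole library, abundant genes that rise lower all others.

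Symbols were matched for 56550 of the 60658 identifiers, and positions and lengths came from GENCODE release 44. The depth was estimated from the steps of low FPKM values of genes with 1 transcript of at least 500 bases: 77.9% to 79.5% of these values lay within 0.03 of a whole number of fragments. Counting intervals (95%, exact Clopper-Pearson) used these fragments and the canonical transcript length. They cover counting error only.

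Log2 ratios used a pseudocount of 1 and a mean of at least 1 FPKM. The fit was limma 3.58.1 (R 4.3.3) on log2(FPKM + 1), with line and siRNA as terms, 1 residual degree of freedom and an estimated 6.06 prior degrees of freedom, Benjamini-Hochberg adjusted over 14803 genes. The lines serve as replicates there, so its p-values hold for these lines and libraries only. The code of the fit was also run on simulated data. These had the spread the fit assumes and the same siRNA effect in both lines, so that run cannot vouch for the p-values here. Named were all 42 genes, with full statistics for those past 1.5-fold in a line and the largest of each role, and of the 72 further pathway genes those past 1.5-fold the same way in both lines, of which 1 is not reported here. The genes, lists, thresholds and tests were chosen with earlier results of these data known.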

Additional observations from a re-analysis of the deposited data

Results flagged for a closer look

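For 5 of the 42 repair genes the lines differed in sign: the log2 ratio was on 1 side of 0 in HT29 and on the opposite side in LIM1215. Over all genes, only 28.0% were below control in both lines and 36.0% above it in both. A difference in sign was thus less common among the repair genes than over all genes. The difference, LIM1215 minus HT29, was 0.40 for ATR (−0.36 in HT29 and 0.05 in LIM1215), 0.40 for RAD50 (−0.37 in HT29 and 0.03 in LIM1215), 0.60 for NBN (−0.39 in HT29 and 0.21 in LIM1215), −0.84 for BARD1 (0.04 in HT29 and −0.79 in LIM1215), −0.58 for XRCC1 (0.43 in HT29 and −0.15 in LIM1215). With 1 library per group none of these differences was tested. Only for NBN and XRCC1 did the counting intervals lie on opposite sides of control. For ATR and RAD50 the LIM1215 interval included control, and for BARD1 the HT29 interval did. The BARD1 ratio in HT29 turned to −0.03 with FPKM rescaled to a common sum. FANCF, with a ratio of 0.00018 in HT29, was below 0 there under 3 alternatives. The labels give no batch.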

How the results depend on the processing

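No repair gene past 1.5-fold changed direction under any of the 7 alternatives to pseudocount, filter and scaling. That outcome was fixed in advance and is no check of direction. A pseudocount or a filter cannot change the sign of a ratio, and the scalings shifted the ratios of a line only slightly. Of the single log2 ratios under them, 520 stayed within the counting error of the main value and 44 moved further. The 520 include all values under the filter settings, which equal the main values by construction. With a pseudocount of 5, the HT29 median was −0.32 and the LIM1215 count of lower genes 5, against 2.34% of all genes. At a 2-fold threshold, 4 genes were lower in HT29, against 1.95% of all genes, and 1 in LIM1215, against 1.78%. In HT29 the lower count ranged from 8 with a pseudocount of 5, where 3.03% of all genes were lower, to 18 with a common sum, where 9.27% were, and none was higher under any setting in either line. Limma called 0 of the repair genes with a pseudocount of 0.1, without a filter, with a common sum, without the line term (no replicate block) and without a trend, where 23, 14, 25, 4 and 14 of them had an unadjusted p under 0.05, all lower. It called 6 at a mean of at least 5 FPKM. Over all genes, the 288 calls became 50, 0, 49, 0 and 0 under those 5 alternatives in the same order, and 802 at the higher filter. Leaving out a line leaves no residual degrees of freedom, so each line's own ratios stand in for it. No paired analysis by replicate number was possible because the labels number no replicates; the pairing by line is the main fit. Depth limits the genes with few fragments, FANCB among them.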

Other observations

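Some of the 72 further pathway genes had higher levels after the siRNA. Of the 70 measured, 18 were above control in both lines, a smaller share than the 36.0% of all genes. By limma, 3 had an unadjusted p under 0.05 upward, also a smaller share than the 10.6% of all genes, and none passed the adjusted test. The genes below were chosen after their values were seen. REV3L, the catalytic subunit of the translesion polymerase zeta, went from 6.14 to 10.5 FPKM in HT29 and from 8.08 to 11.6 in LIM1215, with limma's adjusted p = 0.134. POLM, a polymerase of end joining, went from 12.8 to 20.9 FPKM in HT29 and from 25.5 to 33.4 in LIM1215 (adjusted p = 0.118). XRCC4, the partner of LIG4, went from 10.5 to 14.7 FPKM in HT29 and from 5.80 to 7.47 in LIM1215 (adjusted p = 0.261), and SHLD1, a subunit of the shieldin complex that limits resection, went from 2.49 to 3.59 FPKM in HT29 and from 3.85 to 5.78 in LIM1215 (adjusted p = 0.307). ERCC1, a nuclease subunit used in crosslink repair, went from 60.1 to 92.6 FPKM in HT29 and from 54.9 to 63.3 in LIM1215 (adjusted p = 0.173). DCLRE1C, the gene for the end-processing nuclease Artemis, went from 5.97 to 14 FPKM in HT29 and from 6.32 to 6.19 in LIM1215, a difference between lines that was not tested.

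The p53 target list holds 4 genes with a known role in repair or nucleotide supply, and none of them passed the adjusted test. DDB2, a sensor of damage by ultraviolet light, went from 31.3 to 42.6 FPKM in HT29 and from 27.1 to 36.8 in LIM1215 (limma's adjusted p = 0.128). XPC, which finds distorted DNA, went from 22.1 to 25.4 FPKM in HT29 and from 22.5 to 23 in LIM1215 (adjusted p = 0.706), and POLH, a translesion polymerase, from 14.7 to 17.3 FPKM in HT29 and from 21.8 to 21.7 in LIM1215 (adjusted p = 0.731). RRM2B, a subunit of ribonucleotide reductase, went from 34.9 to 21.1 FPKM in HT29 and from 16 to 19.7 in LIM1215.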
